A study of Mus musculus with 2 samples.

Results

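The interleukin-2 (IL-2) receptor and its STAT5 signalling chain were examined as 10 genes, found by their symbols in the deposited feature list among 32285 genes. They comprised the 3 chains of the IL-2 receptor (Il2ra, Il2rb and Il2rg), the IL-7 receptor alpha chain (Il7r), the Janus kinases Jak1 and Jak3, the transcription factors Stat5a and Stat5b, and the feedback inhibitors Cish and Socs2. All 10 were detected in both libraries, and none was chosen by a threshold on its level. Levels were read in barcodes (droplets) holding 300 or more genes and mitochondrial UMIs of 5% or less, where a UMI tags 1 RNA molecule.

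The data were 2 droplet single-cell RNA libraries of live YFP+ cells sorted from spleens of C57BL/6J mice at 7 days of age. WT mice carried Foxp3-Cre, in which Cre recombinase and YFP follow the regulatory T cell (Treg) gene Foxp3. KO mice carried Zfp335fl/fl with Foxp3-Cre, so that Zfp335, a zinc finger regulator of transcription, was deleted only in cells that had expressed Foxp3, in hosts whose other cells kept the gene. There was 1 library of each genotype, and the number of mice behind each was not stated, so genotype and library cannot be told apart and no test between them was possible. Every interval below is a 95% interval that covers counting error only.

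In T cells, IL-2 binds Il2ra with high affinity once this chain joins Il2rb and the shared chain Il2rg. Jak1 and Jak3, bound to Il2rb and Il2rg, then phosphorylate STAT5, which enters the nucleus and induces target genes, among them Il2ra itself and the inhibitors Cish and Socs2. Tregs make little IL-2, depend on IL-2 from other cells, and typically hold much Il2ra and little Il7r on their surface.

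STAT5 dimers bind DNA at TTCNNNGAA, where N is any base, a motif that reads alike on both strands. Of the 10 members, 8 had an entry in the RefSeq promoter table (GRCm38.p6, 250 bases before to 50 bases after a start site), whereas Il2rb and Socs2 had none. The motif was present in the windows of 2 of these 8, Cish and Il7r, and it was present in 8.30% of all 32851 windows of that length. A gene can have several windows, so that share is not a share of genes. At least 2 copies were found in 0.457% of all windows, among them those of Cish and of the STAT5 targets Lta and Bcl6, the latter with 3 copies in 1 of its 2 windows. These 4 windows are printed as examples, of which Cish and Lta were higher in KO, whereas Il7r and Bcl6 were lower. Of 36 other genes of the pathway with an entry, 6 had the motif. They were Lta, Bcl6, Socs3, Foxp3, Il4 and Gzmb, and the last 2 were also lower in KO over T-lineage barcodes. Capitals mark the motif.
Cish, chr9:107296409-107296708, plus strand: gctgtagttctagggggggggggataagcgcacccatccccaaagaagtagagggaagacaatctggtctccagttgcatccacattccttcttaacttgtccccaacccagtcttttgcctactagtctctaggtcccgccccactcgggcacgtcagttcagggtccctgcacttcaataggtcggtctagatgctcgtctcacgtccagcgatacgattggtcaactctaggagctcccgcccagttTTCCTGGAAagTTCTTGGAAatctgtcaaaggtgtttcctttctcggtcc
Il7r, chr15:9529827-9530126, minus strand: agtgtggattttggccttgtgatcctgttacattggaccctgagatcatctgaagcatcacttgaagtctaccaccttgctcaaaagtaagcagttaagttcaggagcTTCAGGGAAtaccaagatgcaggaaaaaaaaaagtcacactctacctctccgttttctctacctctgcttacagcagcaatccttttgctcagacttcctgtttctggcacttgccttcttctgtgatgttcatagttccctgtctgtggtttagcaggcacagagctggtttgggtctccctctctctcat
Lta, chr17:35205302-35205601, minus strand: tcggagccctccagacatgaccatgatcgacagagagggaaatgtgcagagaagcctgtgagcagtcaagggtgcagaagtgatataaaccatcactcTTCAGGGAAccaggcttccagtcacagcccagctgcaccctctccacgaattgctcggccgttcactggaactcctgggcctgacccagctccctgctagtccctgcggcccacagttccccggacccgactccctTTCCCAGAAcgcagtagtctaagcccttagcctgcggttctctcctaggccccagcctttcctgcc
Bcl6, chr16:23981234-23981533, minus strand: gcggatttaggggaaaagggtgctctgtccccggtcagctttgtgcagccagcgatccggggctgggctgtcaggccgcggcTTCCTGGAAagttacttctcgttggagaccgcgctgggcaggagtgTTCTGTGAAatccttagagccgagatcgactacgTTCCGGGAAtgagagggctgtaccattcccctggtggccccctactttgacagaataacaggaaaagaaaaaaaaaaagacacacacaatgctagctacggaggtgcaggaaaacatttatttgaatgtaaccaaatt
In the Cish window the 2 copies were separated by 2 bases and lay at the start site, whereas the copies in Lta were 127 bases apart. A match of letters is a description and not evidence that STAT5 was bound there.

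The filters and the removal of doublets left 7840 WT and 12790 KO barcodes, with a median of 5060 UMIs in WT and 2725 UMIs in KO. T-lineage clusters held 7307 WT and 11988 KO of them. Zfp335, the deleted gene, was at 8.15 CPM (UMIs of a gene per 1000000 UMIs) in WT and 0.843 CPM in KO T-lineage barcodes, a KO to WT ratio of 0.103 (0.0731 to 0.143). Clusters were named by marker genes as resting, activated and effector Treg-like, S-phase T-like and dysTreg-like, the last after the name that the study gives to a dysfunctional population. The dysTreg-like name rests on 6 markers only, the haemoglobin genes Hba-a1, Hba-a2, Hbb-bs and Hbb-bt with S100a8 and S100a9. Another 3 T-lineage clusters stayed unnamed, the largest of them led by neutrophil genes with 16 WT and 755 KO barcodes. Foxp3 was at 40.6 CPM in WT and 44.7 CPM in KO T-lineage barcodes. All 6 Treg identity markers had a UMI in the summed counts of each of these 5 states in both libraries. Summed counts meet so low a bar easily, so this does not establish Treg identity. The states differed in size. Resting barcodes numbered 2754 in WT and 4768 in KO, activated 668 and 1182, S-phase 614 and 974, effector 2106 and 60, and dysTreg-like 1066 and 4213. The dysTreg-like barcodes were shallow, with medians of 682.5 UMIs in WT and 1371 in KO, and Mpo, haemoglobin and neutrophil granule genes led them. Resting barcodes had near equal depth in the libraries, with medians of 3880 and 3723 UMIs, and are given most weight below. The libraries also differed in Xist, at 214 CPM in WT and 553 CPM in KO, and in 4 summed Y-linked genes, at 75.7 and 43.9 CPM. A difference in the sex of the mice cannot be told apart from genotype.

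Over all T-lineage barcodes, Il2ra, Cish and Socs2 were at least 1.5-fold higher in KO than in WT, and no member was lower by that fold. A 1.5-fold excess in KO was found in 6.19% of the 12135 genes with at least 50 UMIs, a deficit of that size in 12.5% and either in 18.7%. The median log2 ratio was 0.12 over the 10 members and -0.07 over all these genes. Within resting Treg-like barcodes, Cish and Socs2 were past the fold and Il2ra was not. There the excess in KO was found in 2.42% of 10432 genes, the deficit in 12.5% and either in 14.9%. Without dysTreg-like and unnamed clusters, the same 3 members were past the fold over the remaining T-lineage barcodes, where 5.27% of genes were higher in KO. The median log2 ratio in resting barcodes was 0.03 over the members and -0.12 over all genes.

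**Figure D1:**
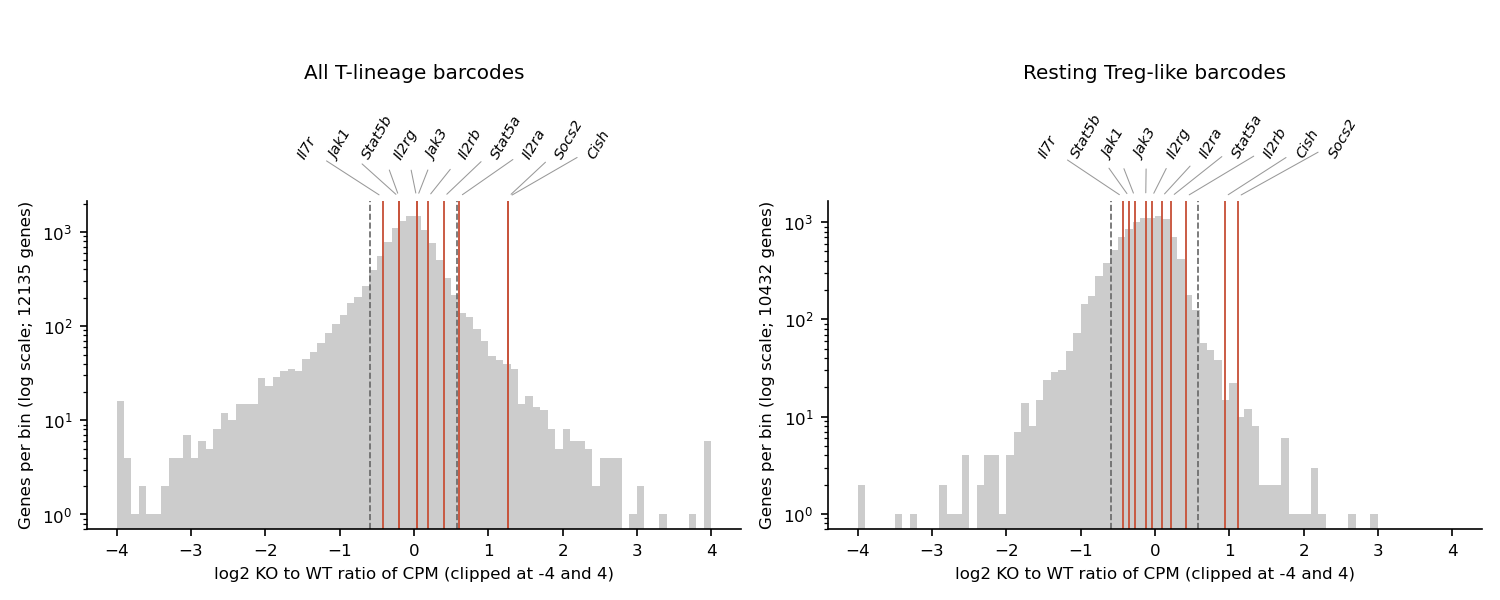
Histograms of the log2 KO to WT ratio of CPM for all genes with at least 50 UMIs, in all T-lineage barcodes (left) and in resting Treg-like barcodes (right), with gene counts on a log axis. Red lines mark the 10 members and dashed lines 1.5-fold either way; Cish and Socs2 lie to the right of the dashed line in both panels, whereas Il2ra does so only in the left panel.

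Il2ra, the alpha chain that gives the receptor its high affinity (ENSMUSG00000026770, chromosome 2, 11642807 to 11693193, plus strand, GRCm38), was at 134.5 CPM (131.2 to 137.8) in WT and 204.6 CPM (200.6 to 208.7) in KO T-lineage barcodes. The KO to WT ratio was 1.52 (1.47 to 1.57). In resting barcodes the levels were much closer, 181 CPM in WT and 193 CPM in KO, and the ratio was 1.07 (1.01 to 1.12). The ratio was larger in the other states. It was 1.29 (1.20 to 1.39) in activated barcodes, from 170.4 CPM in WT and 220.1 CPM in KO, and 1.76 (1.64 to 1.89) in S-phase barcodes, from 128 and 225 CPM. Effector barcodes had a ratio of 1.74 (1.40 to 2.13) and dysTreg-like barcodes one of 1.83 (1.5 to 2.27), the latter from 108 and 198 CPM. The order of the states also differed between libraries. In WT, Il2ra was highest in resting and activated barcodes, whose intervals overlapped, and lowest in effector barcodes at 97.1 CPM (92.6 to 101.8), which overlapped dysTreg-like barcodes. The WT effector level was 0.536 (0.503 to 0.572) of the WT resting level, and Il2ra was the only member past 1.5-fold between these WT states, where 16.1% of all genes were lower in effector barcodes. In KO the S-phase and activated levels were highest and overlapped, and the effector level of 169 CPM (137 to 206) rested on 60 barcodes. The study describes Il2ra, Il2rb and Stat5b as high in its effector Tregs, and most Treg marker genes as lowest in its resting Tregs. In WT here, Il2ra and Stat5b were instead lower in effector than in resting barcodes, Stat5b at 0.769 (0.706 to 0.839) of the resting level. Il2rb was higher, at 1.21 (1.14 to 1.27) times the resting level. Il2ra is also described by the study as lower in its dysfunctional population than in resting Tregs. Here the dysTreg-like level was 0.595 (0.483 to 0.726) of the resting level in WT but 1.02 (0.962 to 1.09) times it in KO. These dysTreg-like barcodes were 13.6% of kept barcodes in WT and 32.9% in KO. They left out the unnamed cluster led by neutrophil genes, with 16 WT and 755 KO barcodes. The dysfunctional population of the study was a far smaller part of WT, and is described with proliferation genes beside S100a8 and S100a9. How far it matches the dysTreg-like barcodes was not tested. Without effector barcodes in either library the T-lineage ratio was 1.30 (1.26 to 1.35), below the 1.5-fold line. Effector barcodes were 26.9% of the kept barcodes in WT and 0.469% in KO. Cish and Socs2 stayed past the fold without them, where 4.83% of genes were higher in KO.

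The S-phase state was not alike in the libraries. The 10 effector markers summed to 4586 CPM in WT and 1535 CPM in KO S-phase barcodes, and the 9 resting markers to 967 and 1718 CPM. How far this difference in makeup bore on the S-phase ratios was not tested. In resting barcodes the same sums were closer, 1254 and 1032 CPM for effector markers and 2310 and 2504 CPM for resting markers.

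Il2rb, the signalling beta chain shared with the IL-15 receptor (ENSMUSG00000068227, chromosome 15, 78479256 to 78495271, minus strand), showed the opposite relation between state and pool. It was at 182 CPM (174.5 to 190.3) in WT and 243 CPM (236 to 249.7) in KO resting barcodes, a ratio of 1.33 (1.26 to 1.40). In the T-lineage pool it was at 199 CPM in WT and 227 CPM in KO, a ratio of 1.14 (1.11 to 1.17). At Leiden resolution 1.0 the resting ratio was only 1.13, so this contrast between state and pool depended on the clustering. WT effector barcodes, which KO lacked for the most part, held the highest WT level of this chain, 220.2 CPM (213.4 to 227.1), or 1.21 (1.14 to 1.27) times the WT resting level. The KO level was above the WT level in all 5 states, and the interval included 1 in effector barcodes, where the ratio was 1.17 (0.984 to 1.37). Il2rb was also at 234 CPM in WT and 213 CPM in KO in the smaller resting cluster led by interferon-induced genes such as Ifit3, which held 94 WT and 954 KO barcodes, and there the ratio was 0.911 (0.747 to 1.12).

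Il2rg, the common gamma chain used by the receptors of several cytokines (ENSMUSG00000031304, chromosome X, 101264378 to 101268255, minus strand), was nearly level between the libraries. It was at 228.8 CPM in WT and 234.6 CPM in KO T-lineage barcodes, a ratio of 1.03 (0.999 to 1.05), and at 290.5 and 282.5 CPM in resting barcodes, a ratio of 0.972 (0.931 to 1.02). In resting barcodes the side of 1 on which it lay depended on scaling, since edgeR factors gave a ratio of 1.05. Its state ratios went both ways, 0.887 (0.829 to 0.948) in activated barcodes and 1.26 (1.18 to 1.35) in S-phase barcodes.

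Il7r, the alpha chain of the IL-7 receptor, which pairs with Il2rg (ENSMUSG00000003882, chromosome 15, 9505788 to 9530176, minus strand), was the receptor chain that was lower in KO. It was at 98.5 CPM (92.8 to 104.5) in WT and 73.1 CPM (69.4 to 76.9) in KO resting barcodes, a ratio of 0.741 (0.685 to 0.802). Pooled over T-lineage barcodes it was at 71.1 CPM in WT and 53.1 CPM in KO, a ratio of 0.746 (0.709 to 0.786). It was also below WT in activated barcodes, with 38.2 and 30.5 CPM and a ratio of 0.799 (0.675 to 0.947). In S-phase barcodes the order was turned, with 30.8 CPM in WT and 45.0 CPM in KO and a ratio of 1.46 (1.26 to 1.70). Il7r varied most between states of all members in WT, with a 3.20-fold range between resting and S-phase barcodes. The WT resting and effector levels, 98.5 and 89.5 CPM, stood apart from the activated level. Their separate intervals overlapped, but the effector level was 0.909 (0.841 to 0.982) of the resting level.

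**Figure D2:**
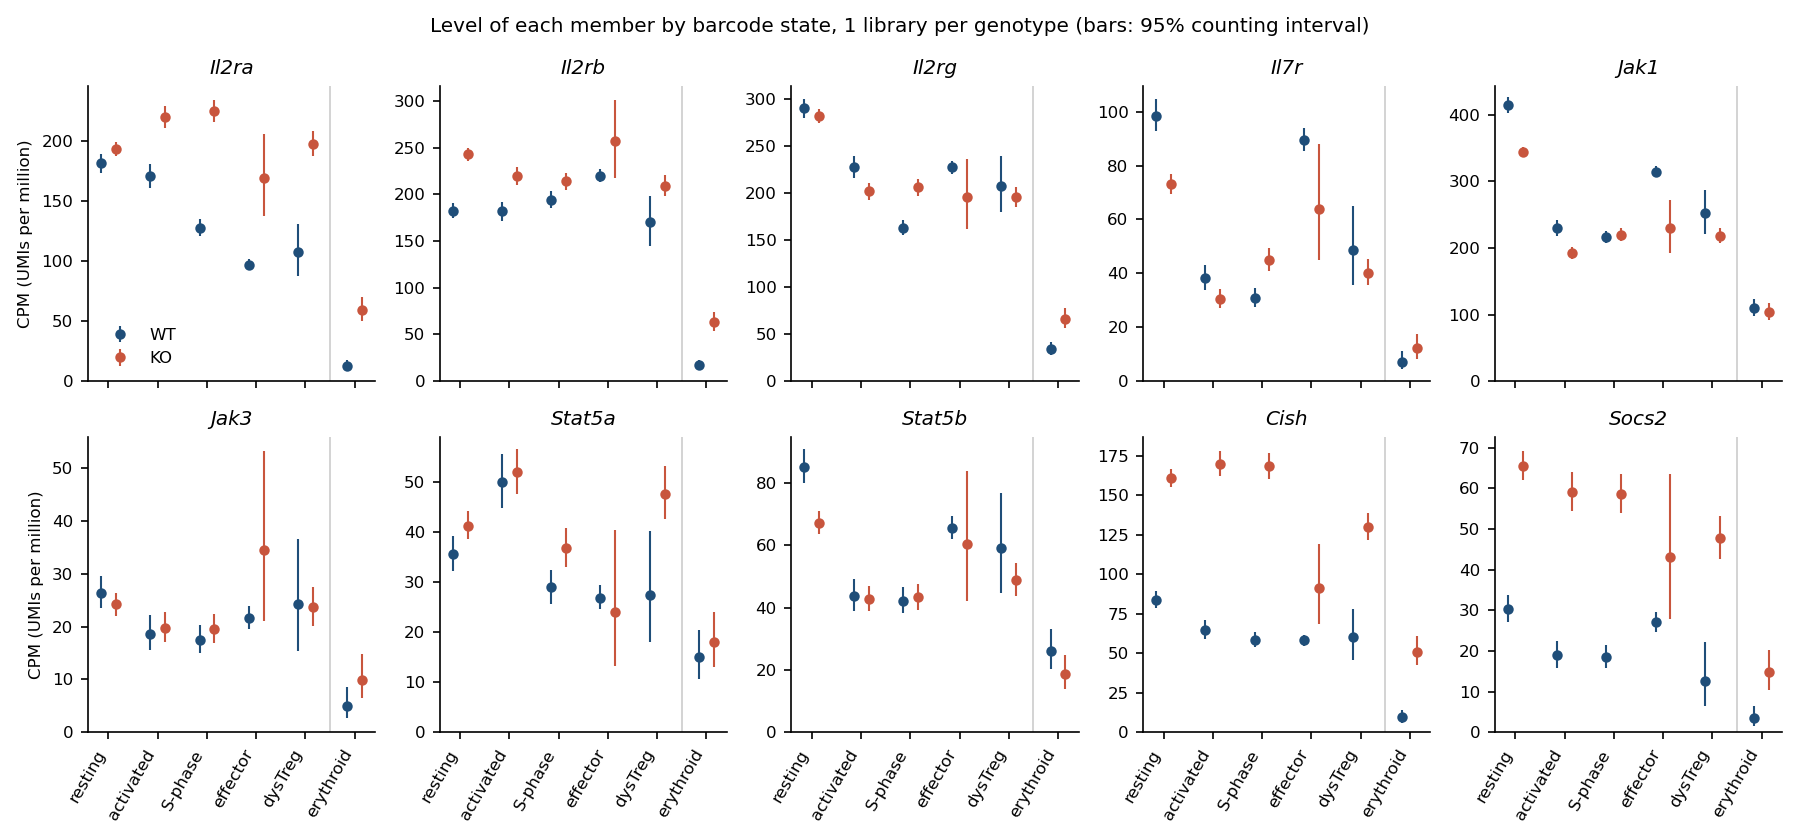
CPM (linear axis from 0) of each member in 5 T-lineage states and, right of the grey line, in erythroid-like barcodes, for the WT (blue) and KO (red) library, with 95% counting intervals as bars. Cish and Socs2 are higher in KO in every T-lineage state, Il2ra is nearly level in resting barcodes only, and Il7r is higher in KO only in S-phase barcodes.

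Of the kinases, Jak1, which binds Il2rb (ENSMUSG00000028530, chromosome 4, 101152367 to 101265282, minus strand), was at 414 CPM (403 to 426) in WT and 344 CPM (336 to 352) in KO resting barcodes. The ratio was 0.830 (0.80 to 0.862). In the T-lineage pool it was 0.870 (0.850 to 0.891), from 304 and 265 CPM. Jak1 was below WT in 4 of the 5 states, and in S-phase barcodes the ratio was 1.02 (0.957 to 1.08). Jak3, which binds the common gamma chain (ENSMUSG00000031805, chromosome 8, 71676296 to 71690575, plus strand), had an interval that included 1 in all 5 states. It was at 26.3 CPM in WT and 24.2 CPM in KO resting barcodes, a ratio of 0.918 (0.793 to 1.06), and in effector barcodes a ratio of 1.59 (0.960 to 2.49) rested on 20 KO UMIs.

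The pair of STAT5 genes, neighbours on chromosome 11 with 8626 bases between them, lay on opposite sides of WT in resting barcodes and in the T-lineage pool. In S-phase barcodes both were above WT, with ratios of 1.27 (1.08 to 1.49) for Stat5a and 1.03 (0.895 to 1.18) for Stat5b, and in effector barcodes both were below it, with intervals that included 1. In the shallow dysTreg-like barcodes Stat5a was past 1.5-fold, at 27.5 CPM in WT and 47.7 CPM in KO. Stat5b was there at 59.2 CPM in WT and 48.9 CPM in KO. Stat5a (ENSMUSG00000004043, 100859351 to 100885169, plus strand) was at 35.5 CPM (32.1 to 39.2) in WT and 41.3 CPM (38.5 to 44.2) in KO resting barcodes, a ratio of 1.16 (1.03 to 1.31). In the T-lineage pool it was at 32.9 CPM in WT and 43.4 CPM in KO, a ratio of 1.32 (1.24 to 1.41). Stat5b (ENSMUSG00000020919, 100780731 to 100850724, minus strand) was at 85.2 CPM (79.9 to 90.8) in WT and 67.2 CPM (63.6 to 70.9) in KO resting barcodes, a ratio of 0.788 (0.725 to 0.857). Pooled over T-lineage barcodes it was at 62.1 CPM in WT and 54.1 CPM in KO, a ratio of 0.871 (0.826 to 0.919). The states also ordered them differently in WT. Stat5a was highest in activated barcodes at 49.9 CPM, 1.40 (1.21 to 1.63) times the resting level, whereas Stat5b in activated barcodes was 0.514 (0.450 to 0.586) of its resting level. Their protein products are closely related, and RNA counts cannot show phosphorylated STAT5.

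The feedback inhibitors had the largest ratios among the members over T-lineage and over resting barcodes. Cish, a SOCS family protein that STAT5 induces and that dampens receptor signalling (ENSMUSG00000032578, chromosome 9, 107296026 to 107302784, plus strand), was at 83.9 CPM (78.7 to 89.4) in WT and 161 CPM (155 to 167) in KO resting barcodes. The ratio was 1.92 (1.78 to 2.06). The T-lineage pool held it at 65.5 CPM in WT and 158 CPM in KO, a ratio of 2.42 (2.32 to 2.52). The ratio was 2.62 (2.35 to 2.91) in activated, 2.88 (2.62 to 3.18) in S-phase, 1.57 (1.17 to 2.07) in effector and 2.16 (1.65 to 2.87) in dysTreg-like barcodes. No interval of these 5 states included 1. In WT the Cish level spanned only a 1.44-fold range between states, from 58.2 CPM in effector to 83.9 CPM in resting barcodes, and every KO state lay above that highest WT value, the KO effector level of 91.4 CPM (68.4 to 119.5) with an interval that reached below it.

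Socs2, another STAT5-induced inhibitor of cytokine receptors (ENSMUSG00000020027, chromosome 10, 95385362 to 95417180, minus strand), was at 30.3 CPM (27.2 to 33.7) in WT and 65.5 CPM (62.0 to 69.2) in KO resting barcodes. The ratio was 2.16 (1.92 to 2.44). In the T-lineage pool it was at 24.6 CPM in WT and 59.1 CPM in KO, a ratio of 2.41 (2.25 to 2.58). The ratio was 3.12 (2.57 to 3.80) in activated, 3.16 (2.67 to 3.75) in S-phase, 1.60 (1.02 to 2.38) in effector and 3.76 (2.12 to 7.35) in dysTreg-like barcodes, the last from 12 WT UMIs. In the interferon-led resting cluster the levels were 52.1 CPM in WT, from 25 UMIs, and 69.2 CPM in KO, and the ratio was 1.33 (0.881 to 2.09). Cish in that cluster was at 100.1 and 161.2 CPM, a ratio of 1.61 (1.20 to 2.21).

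Counted by state, 2 of the 10 members were higher in KO by 1.5-fold in activated barcodes, where 4.79% of all genes were, and 3 in S-phase barcodes, where 8.58% of all genes were. There were 4 in effector barcodes (11.2% of all genes) and 4 in dysTreg-like barcodes (9.31%), and no member was lower by that fold in these states. The share of all genes lower by that fold was 11.0% in activated, 8.2% in S-phase, 20.4% in effector and 12.9% in dysTreg-like barcodes. Cish and Socs2 were the members past the fold in all 5 states.

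**Figure D3:**
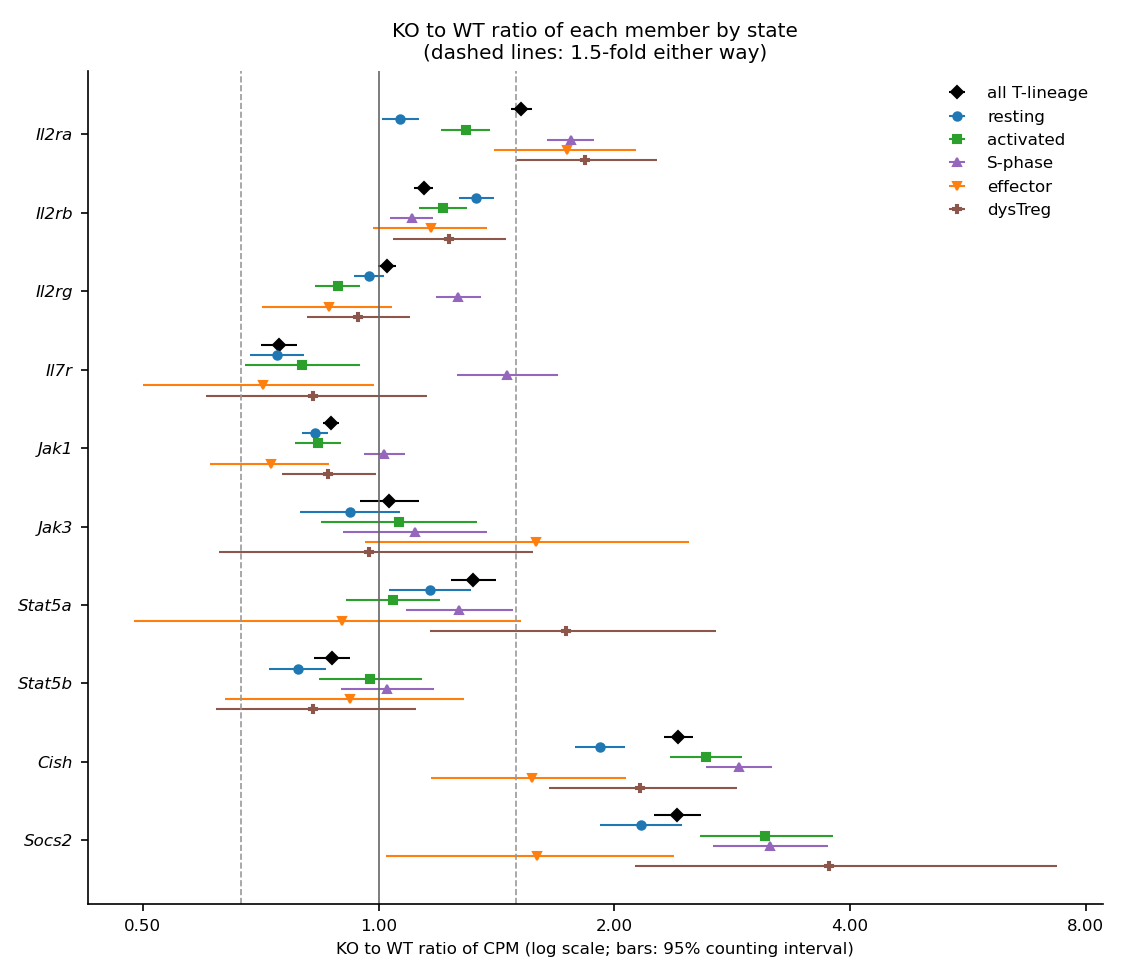
KO to WT ratio of CPM (log axis) of each member over all T-lineage barcodes (black) and in each of 5 states (colours), with 95% counting intervals as bars and dashed lines at 1.5-fold either way. The points of Cish and Socs2 all lie right of the upper dashed line, between 1.57 and 3.76, whereas the resting point of Il2ra lies at 1.07.

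UMIs of these genes were also counted in barcodes of other lineages, where own expression and free RNA from other cells could not be told apart. Erythroid-like barcodes, 284 in WT and 567 in KO, held Il2ra at 12.7 CPM in WT and 59.5 CPM in KO. This was 9.41% (6.47 to 13.2) of the T-lineage level in WT and 29.1% (24.5 to 34.2) in KO. The 6 CD3 and T cell receptor genes were at 12.5% and 27.6% of their T-lineage level there. Cish in erythroid-like barcodes was at 14.6% of its T-lineage level in WT and 32.3% in KO, and Socs2 at 14.0% and 25%. Their intervals included the proportion of the T cell genes, and their erythroid-like level was higher in KO. In myeloid progenitor-like barcodes the T cell genes were closer, at 10.2% in WT and 11.9% in KO. There Il2ra was at 15.96% (11.4 to 21.7) of its T-lineage level in WT and 13.3% (9.99 to 17.3) in KO. Cish was there at 20.8% (13.6 to 30.5) in WT and 16.5% (12.4 to 21.7) in KO. Only the KO interval of Il2ra included the proportion of the T cell genes. Socs2 was there at 51.1% (32.6 to 76.4) in WT and 18.4% (11.5 to 27.9) in KO, or 12.6 and 10.9 CPM. In neutrophil-like barcodes the T cell genes were at 12.4% in WT and 26.02% in KO. Cish was above that proportion in both, at 44.1% (29.0 to 64.3) in WT and 40.3% (28.6 to 55.1) in KO. The Il2ra interval included it in WT, at 16.7% (10.3 to 25.6), but not in KO, at 39.9% (29.6 to 52.7). The Socs2 intervals included it in both libraries. Jak1, Stat5a and Stat5b were at 36.1%, 45.5% and 42.0% of their T-lineage level in WT erythroid-like barcodes, well above the 12.5% of the T cell genes. How far free RNA bore on the KO to WT ratios was not tested.

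Shares of barcodes were compared after each barcode had been thinned to 1000 UMIs, which left 2680 WT and 4708 KO resting barcodes. At that depth Il2ra was counted in 13.8% (12.6 to 15.2) of WT and 15.3% (14.3 to 16.3) of KO resting barcodes, a difference of 1.43 points (-0.258 to 3.07). Its share in erythroid-like barcodes, at 1000 UMIs each and with unthinned medians of 5436 UMIs in WT and 2386.5 UMIs in KO, was 1.27% and 6.35%. The corresponding unthinned medians of resting barcodes were 3940 and 3762 UMIs. Cish was counted in 7.13% (6.18 to 8.17) of WT and 12.1% (11.2 to 13.1) of KO resting barcodes, beside 2.53% and 7.74% of erythroid-like barcodes. Socs2 was counted in 2.72% (2.14 to 3.41) and 5.08% (4.47 to 5.74), beside 0 of 237 WT erythroid-like barcodes, which allows a share of up to 1.27% (3 counts of the total), and 1.79% of KO ones. Il7r was counted in 8.69% (7.65 to 9.82) and 6.29% (5.61 to 7.02), beside 1.27% and 2.38%. Both inhibitors were found in more KO than WT resting barcodes, and Il7r in fewer. Each of these genes was also counted in a larger share of KO than of WT erythroid-like barcodes. How far free RNA bore on the resting shares was not tested.

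All 3 chains of the high-affinity receptor were counted together in 34 of 6237 thinned WT T-lineage barcodes, 0.545% (0.378 to 0.761), and in 87 of 10957 KO barcodes, 0.794% (0.636 to 0.979). The difference of 0.249 points had an interval of -0.0137 to 0.490, and no erythroid-like barcode held all 3 in either library. The joint share moved with depth. Without thinning it was 21.9% in WT and 16.6% in KO, where WT barcodes were deeper. No order between the libraries was read from it.

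Within the resting state, barcodes that held an Il2ra UMI were set beside those that did not, at equal depth and within each library. Il2rb was counted in 20.5% of 371 WT barcodes with Il2ra and 13.8% of 2309 without it, a difference of 6.71 points (2.65 to 11.3). In KO it was counted in 29.1% of 719 and 17.9% of 3989, a difference of 11.1 points (7.69 to 14.7). Cish was likewise more frequent beside Il2ra, by 8.0 points (4.66 to 12) in WT, from 6.02% to 14.0%, and by 5.74 points (2.98 to 8.80) in KO, from 11.2% to 17.0%. Socs2 was more frequent by 4.03 points (1.89 to 7.01) in WT and 5.83 points (3.73 to 8.31) in KO. Il2rg was not, with differences of 0.569 points (-4.05 to 5.61) and 0.214 points (-3.09 to 3.75). The KO excess of Cish was present in barcodes without an Il2ra UMI, 6.02% (5.08 to 7.07) in WT and 11.2% (10.3 to 12.2) in KO. At 1000 UMIs most resting barcodes lacked an Il2ra UMI, and cells that held Il2ra RNA can be among them. This split therefore cannot show whether the Cish excess was separate from Il2ra.

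Il7r was set beside Il2ra in the same way. In WT resting barcodes it was counted in 13.2% (9.93 to 17.1) of those with Il2ra and 7.97% (6.90 to 9.15) of those without, a difference of 5.24 points (1.95 to 9.20). In KO the shares were 6.82% (5.08 to 8.91) and 6.19% (5.46 to 6.98), a difference of 0.623 points (-1.18 to 2.82). The same difference was 8.50 points (3.51 to 14.9) in WT effector barcodes. In activated barcodes it was 5.37 points (1.32 to 11.65) in WT and -0.453 points (-2.40 to 2.73) in KO. It was 0.977 points (-2.40 to 8.65) in WT S-phase and -2.94 points (-8.29 to 16.5) in WT dysTreg-like barcodes, both with intervals that included 0. The difference between the libraries in this pairing was itself not tested.

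**Figure D4:**
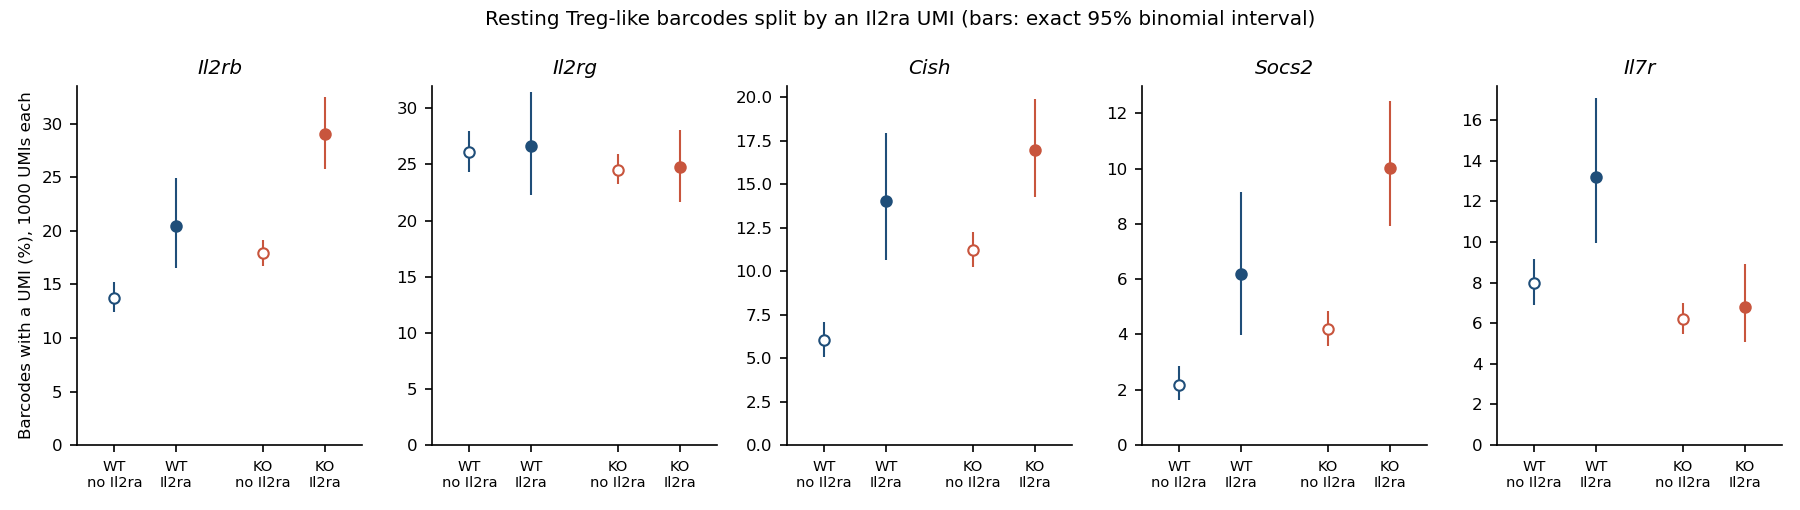
Percent of resting Treg-like barcodes, thinned to 1000 UMIs, with a UMI of Il2rb, Il2rg, Cish, Socs2 or Il7r, split by whether the barcode held an Il2ra UMI (filled) or not (open), in WT (blue) and KO (red), with exact 95% binomial intervals as bars. Il2rb, Cish and Socs2 are more frequent beside Il2ra in both libraries, whereas Il7r is so in WT (13.2% against 7.97%) and differs by 0.623 points in KO.

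The rest of the pathway was followed in a list of 45 genes. Of these, 39 had at least 50 UMIs over all T-lineage barcodes, and 6 were at least 1.5-fold higher and 5 at least 1.5-fold lower in KO. In resting barcodes 38 had 50 UMIs, with 5 higher and 4 lower. Of all genes with that many UMIs, 6.19% were higher and 12.5% lower by that fold in T-lineage barcodes. In resting barcodes these shares were 2.42% and 12.5%. The ligands were scarce. Il2 itself was counted in 78 UMIs in WT and 79 in KO T-lineage barcodes, a ratio of 0.982 (0.709 to 1.36), and 5 of the 7 ligands stayed under 50 UMIs. Il4, the other ligand above that minimum, was at 1.15 CPM in WT and 0.391 CPM in KO.

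Among other receptor chains, Il15ra, which presents IL-15 to Il2rb and Il2rg, was at 14.4 CPM in WT and 24.1 CPM in KO resting barcodes, a ratio of 1.68 (1.40 to 2.02). Il9r, the IL-9 receptor chain that pairs with Il2rg, was at 7.80 and 1.80 CPM, a ratio of 0.231 (0.152 to 0.343). Of the 5 other receptor chains these were the only 2 past the fold, one in each direction. Among the adaptors, Sos1, an exchange factor for Ras, was lower in resting barcodes, at 14.0 and 9.04 CPM and a ratio of 0.646 (0.519 to 0.804).

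Of 6 other negative regulators, Socs1 alone was past the fold. This inhibitor of JAK kinases, induced by interferons as well as by STAT5, was at 34.0 CPM in WT and 85.0 CPM in KO resting barcodes, a ratio of 2.50 (2.23 to 2.80). The T-lineage pool held it at 23.2 CPM in WT and 72.2 CPM in KO, a ratio of 3.11 (2.91 to 3.33). In the largest resting cluster, without the interferon-led one, the Socs1 ratio was 2.22 (1.97 to 2.52). Its relative Socs3 was at 28.4 and 31.9 CPM in resting barcodes, a ratio of 1.12 (0.978 to 1.28).

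Of the 15 STAT5 target genes, 3 were past the fold upward and 2 downward in resting barcodes, where 2.42% and 12.5% of all genes were. Lta, the gene of lymphotoxin alpha, was at 44.0 CPM in WT and 89.6 CPM in KO, a ratio of 2.04 (1.84 to 2.26), and Osm, the gene of the cytokine oncostatin M, was at 4.96 and 10.2 CPM, a ratio of 2.06 (1.53 to 2.82). The kinase gene Pim1 was at 510 and 816 CPM, a ratio of 1.60 (1.55 to 1.65). Gzmb, the cytotoxic protease granzyme B, was lower at 5.94 and 1.70 CPM, a ratio of 0.286 (0.184 to 0.438), as was the repressor Bcl6 at 7.53 and 4.15 CPM, a ratio of 0.550 (0.402 to 0.754). Pooled over T-lineage barcodes, Bcl2, which protects from cell death, was at 156 CPM in WT and 310 CPM in KO, a ratio of 1.99 (1.93 to 2.04), but within resting barcodes at 368 and 413 CPM, a ratio of 1.12 (1.08 to 1.17). Prdm1, the effector regulator Blimp1, was at 8.21 and 2.06 CPM over all T-lineage barcodes, a ratio of 0.250 (0.199 to 0.313), and at 2.75 and 2.15 CPM in resting barcodes, a ratio of 0.782 (0.481 to 1.28).

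**Figure D5:**
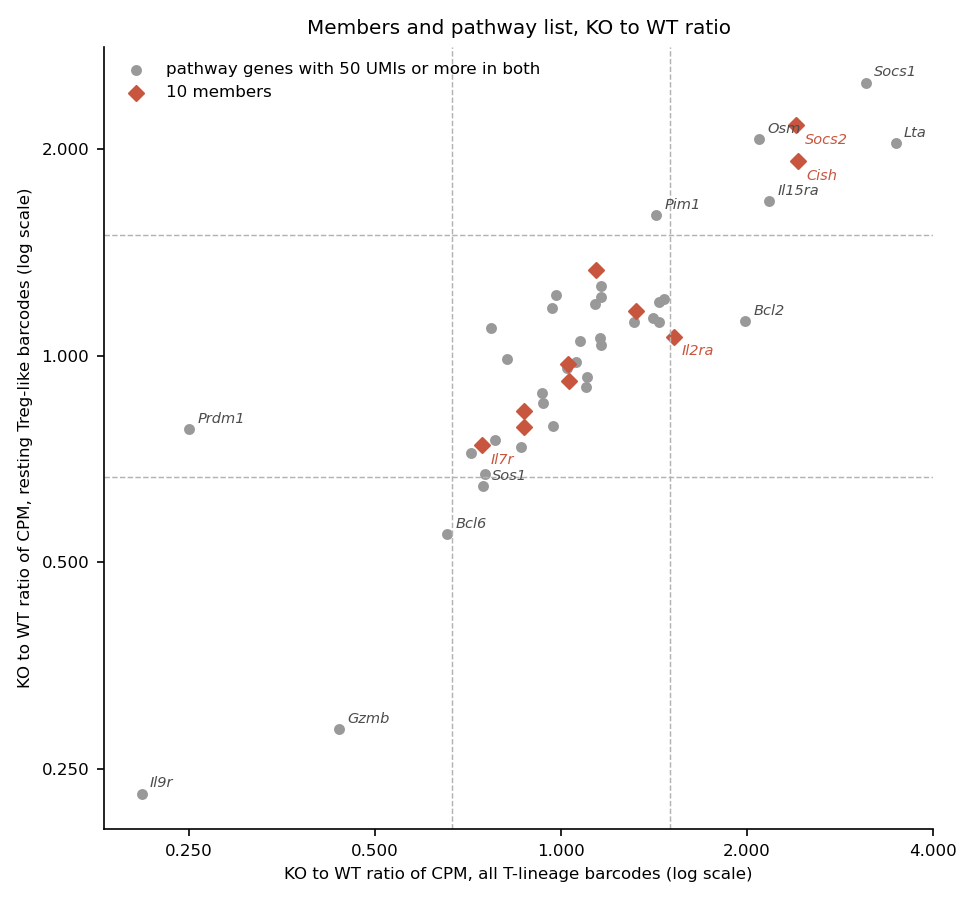
KO to WT ratio of CPM over all T-lineage barcodes (horizontal, log axis) against that in resting Treg-like barcodes (vertical, log axis) for the 10 members (red) and the pathway genes (grey), with dashed lines at 1.5-fold either way. Socs1, Lta, Osm, Il15ra, Cish and Socs2 are past the fold on both axes, and Il9r, Gzmb and Bcl6 are so on the lower side, whereas Il2ra and Bcl2 (higher) and Prdm1 (lower) are past it on the horizontal axis only.

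Over 17 profiles of states and libraries with at least 50 barcodes, other lineages included, the gene levels most like that of Il2ra among 8968 genes were those of Lat, Cd2, Il2rb, Tnfrsf18 and Izumo1r, with Pearson correlations of log2(CPM + 1) from 0.964 to 0.983. For Il7r they were Ifi203, Parp14, Pecam1, Zbtb38 and Cdipt, from 0.949 to 0.966. For Cish they were Lta, Ccr7, Tnfsf8, Il2ra and Socs1, from 0.941 to 0.976. The profiles share libraries and free RNA and include lineages that lack T cell genes, so the values are descriptions. Over the 11 T-lineage profiles alone, the first-ranked genes were Impdh1 for Il2ra at 0.914 and Ifi203 again for Il7r at 0.961. For Cish the first 5 were Gm13546, Ptp4a3, Lta, Drc1 and Xist, from 0.939 to 0.973. Xist itself differed between the libraries.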

How the data were processed

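The authors deposited raw UMI counts per gene and barcode, made with Cell Ranger 5.0.1 on mm10 per the labels, without the filters of the study's methods. Barcodes needed 300 genes or more and no more than 5% mitochondrial UMIs. Doublets were taken as the 5% of all WT and 8% of all KO barcodes with the highest Scrublet scores (scanpy 1.11.5) and removed, although the study's methods give these rates for the opposite libraries, leaving 52751420 WT and 53858495 KO UMIs. The libraries share 27 kept barcode sequences. Clusters (2000 variable genes without markers, members and pathway genes, 30 principal components, 20 neighbours, Leiden resolution 0.5, igraph 0.11.9) were named from marker lists; the naming rule was set after the data were seen. The activated cluster had raised levels of 5 of its 9 markers. The marker and pathway lists, like the members, were chosen with earlier results of these data known.

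UMI counts were summed per library and state and given as CPM. Ratios carry exact conditional binomial intervals, levels exact Poisson, shares Clopper-Pearson and share differences Newcombe intervals, all at 95% and for counting error only. Counts past 1.5-fold are a rule of size, and median log2 ratios have 0.5 UMI added per library. Thinned shares come from 1 random draw. Scaling by edgeR 4.0.16 and DESeq2 1.42.0 factors was an alternative, used without their tests. The code was checked on simulated counts. Named were all members, pathway genes past 1.5-fold whose interval leaves out 1 with at least 50 UMIs, the 5 genes most like Il2ra, Il7r and Cish among those with at least 500 UMIs, and Zfp335. Il2, Socs3, the genes most alike over T-lineage profiles alone and the Xist, Y-linked and marker sums were added after their values were seen. The values of 1 pathway gene are not reported here and are not plotted, though it is in the counts of the list. Gene positions are from GENCODE vM21 (GRCm38).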

Additional observations from a re-analysis of the deposited data

Results flagged for a closer look

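Il7r and Il2rg are listed because their KO to WT ratio lay on opposite sides of 1 in different states, with every such interval leaving out 1. Il7r had a ratio of 1.46 (1.26 to 1.70) in S-phase T-like barcodes but 0.741 (0.685 to 0.802) in resting, 0.799 (0.675 to 0.947) in activated and 0.712 (0.50 to 0.986) in effector Treg-like barcodes. Il2rg had a ratio of 1.26 (1.18 to 1.35) in S-phase T-like and 0.887 (0.829 to 0.948) in activated Treg-like barcodes. With 1 library per genotype the difference between states was not tested. In both genes the S-phase state stood apart, and in that state the effector markers summed to 4586 CPM in WT and 1535 CPM in KO. The part of this makeup in the ratios was not tested.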

How the results depend on the processing

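The count of members past 1.5-fold was 2 or 3 over all T-lineage barcodes under every alternative, and 2 in resting Treg-like barcodes under every alternative, each time Cish and Socs2. Over all T-lineage barcodes Cish ranged from 2.11 to 2.53 and Socs2 from 2.22 to 2.57 over 14 alternatives. In resting barcodes they ranged from 1.72 to 2.08 and from 1.93 to 2.38 over 13. Il2rb ranged from 1.13, at Leiden resolution 1.0, to 1.44 in resting barcodes, and from 1.14 to 1.24 over all T-lineage barcodes. Il2ra passed the fold over all T-lineage barcodes in 10 of 14 alternatives and was lowest, at 1.25, among barcodes of 2000 to 6000 UMIs, where Il7r was at 0.601 and passed it. With the mean of single-cell CPM Il2ra was at 1.42 and Il7r at 0.640, so that in both settings the 3 members past the fold were Il7r, Cish and Socs2. Il2rg and Jak3 crossed 1 under 2 and 3 of the 14 alternatives over all T-lineage barcodes, and under 4 and 2 of the 13 in resting barcodes. Both scalings moved Il2rg above 1 in resting barcodes. The DESeq2 factors moved every log2 ratio by 0.07 over all T-lineage barcodes and by 0.12 in resting barcodes. The difference in the share of T-lineage barcodes with all 3 receptor chains was 0.617 points when thinned to 2000 UMIs and -5.33 points without thinning. Its interval left out 0 in favour of KO when thinned to 500 UMIs or without a mitochondrial filter, and in favour of WT without thinning. Without a filter on low counts, 39.5% of genes were past 1.5-fold over all T-lineage barcodes and 39.2% in resting ones, against 18.7% and 14.9% with it. That setting could not change the ratio of any member, so it repeats the main values among the 14 and the 13 alternatives. The alternatives without effector barcodes, without dysTreg-like and unnamed clusters, and with the largest resting cluster alone were chosen after seeing the data. No paired analysis was possible because each genotype had 1 library. Depth limited Jak3 and Stat5a in effector barcodes, where KO held 20 and 14 UMIs.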
